A study of Oryza sativa with 9 samples.

Results

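The module described here holds the genes whose transcripts were less abundant in both mutant lines of rice than in wild type, with a clear gap between the groups in every library. A gene was a member when its mean over the 9 libraries was at least 1 TPM and when the highest of the 6 mutant libraries lay at or below 0.67 times the lowest of the 3 wild-type libraries. Of 55986 gene identifiers in the deposited table, 19345 had a mean of at least 1 TPM, and 51 of these (0.264%) were members. TPM (transcripts scaled to a fixed library total) is a relative abundance that corrects for gene length and sums to 1000000 in each library. The members were selected on the mutant and wild-type values themselves, so the difference from wild type is described below without a test.

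RNA came from leaves of rice plants 40 days old that had been grown in a paddy field. The libraries formed 3 groups of 3: osatxr5c;osatxr6kd-2 (line 2 below), osatxr5c;osatxr6kd-1 (line 1 below), and the group titled NP with the genotype WT. The labels give both mutant lines the same genotype, osatxr5c;osatxr6kd, and do not say how the alleles were made, how many plants stand behind a library, or how the WT plants relate to the lines. Spread between libraries may therefore be technical, and a difference shared by both lines cannot be told apart from any other difference between these plants and WT.

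ATXR5 and ATXR6 are plant enzymes that add a single methyl group to lysine 27 of histone H3. In Arabidopsis this mark is known for keeping heterochromatin silent and for preventing extra rounds of DNA replication there. Loss of a silencing mark is usually discussed in terms of genes that become more active, and the members here are the opposite class. The rule turned round asked that the lowest mutant library be at least 1/0.67 times the highest WT library. It held for 494 genes, 77 of them listed at 0 in all WT libraries, against the 51 members. The minimum mean counts more mutant than WT libraries, so it admits low genes raised in the mutants more readily. With no ratio asked, all mutant libraries lay below all WT libraries in 9.98% of the 19345 genes and above in 9.11%. The files give gene identifiers only, and 1 of the 55986 could be paired with a record of the RefSeq rice table, which was not a member. Members are therefore called by their identifiers, with no name or role. OsATXR5, OsATXR6 and leaf markers were not analysed here for the same reason.

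**Figure D1:**
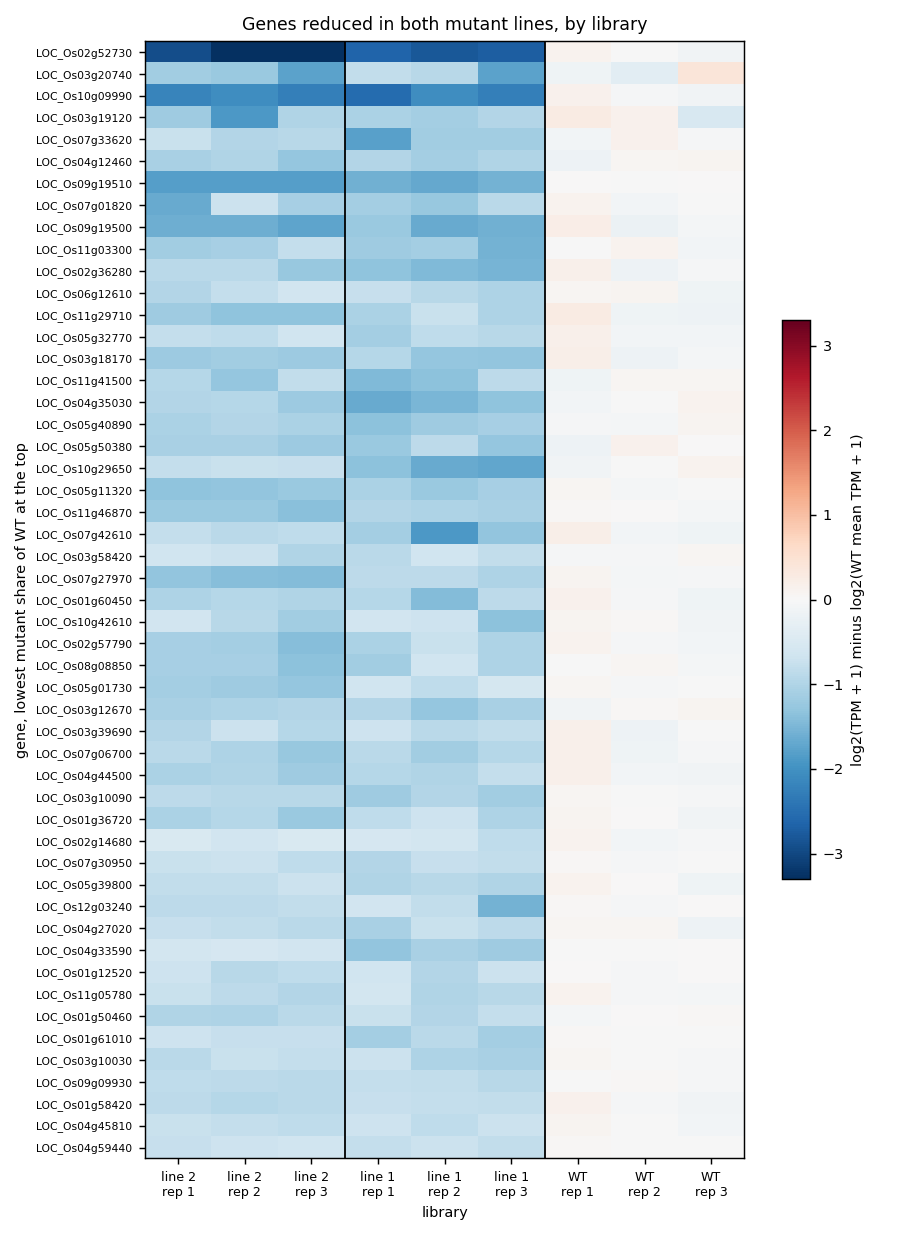
Each row is one of the 51 genes and each column one library, in the order line 2, line 1 and WT. Colour gives log2(TPM + 1) minus the log2(WT mean TPM + 1) of the same gene, with blue for values below the WT mean. All mutant cells are blue because the genes were chosen so; the darkest rows are LOC_Os02g52730 and LOC_Os10g09990.

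Most members kept an appreciable share of their WT level. In whole leaves, fewer cells of a type and less RNA per cell cannot be told apart. The mean over the 6 mutant libraries was a median of 46.5% of the WT mean, with a range of 3.79% to 60.1%. In line 2 the median was 46.7% of WT (range 1.35% to 63.7%), and in line 1 it was 46.8% (range 6.23% to 59.7%). Both lines were at or below 50% of WT in 26 members, line 2 alone in 7, line 1 alone in 9, and neither in 9. Over the 6 mutant libraries, 4 members were at or below 25% of WT, 13 lay above 25% and up to 40%, 17 lay above 40% and up to 50%, and 17 lay above 50%. The module is thus mostly one of partial reductions, and near-complete loss was seen in LOC_Os02g52730.

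LOC_Os02g52730 stood farthest from WT. It was at 0.385 TPM in replicate 1 of line 2 and listed at 0 in the other two, at 0.691, 0.498 and 0.583 TPM in line 1, against 10.3, 9.47 and 8.70 TPM in WT. The highest mutant library was 0.0795 times the lowest WT library. The lowest non-zero value of each library lay between 0.303 and 0.327 TPM, so the mutant values of this gene were close to the smallest value reported. A 0 there may stand for an unreported low value or a failed estimate, so its share of WT in line 2 is uncertain.

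LOC_Os10g09990 came next, and here the mutant values were far above that edge. It was at 8.08, 8.83 and 7.55 TPM in line 2, at 6.05, 8.82 and 7.50 TPM in line 1, against 44.1, 38.8 and 36.6 TPM in WT. Line 2 kept 20.5% and line 1 18.7% of the WT mean, and the libraries of the lines overlapped. No other member with a WT mean above 10 TPM was below 25% of WT over the 6 mutant libraries.

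LOC_Os09g19510 and LOC_Os09g19500 bear consecutive identifiers on chromosome 9 and had the third and the fifth lowest ratio in the module. LOC_Os09g19510 was at 11.97, 12.03 and 11.89 TPM in line 2, at 14.1, 13.2 and 14.5 TPM in line 1, against 45.1, 43.9 and 44.9 TPM in WT. LOC_Os09g19500 was at 8.33, 8.403 and 7.51 TPM in line 2, at 11.1, 7.99 and 8.51 TPM in line 1, against 32.3, 24.1 and 26.3 TPM in WT. Both genes thus kept similar shares of WT, 26.8% and 29.3% in line 2 and 31.2% and 33.4% in line 1. Whether they share reads, as copies or as overlapping neighbours would, was not tested.

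The remaining members among the 12 with the lowest ratio covered a wide span of levels. LOC_Os05g11320 was the most abundant member and was at 724, 733 and 767 TPM in line 2, at 872, 768 and 849 TPM in line 1, against 1901, 1723 and 1805 TPM in WT. LOC_Os11g46870 was at 11.7, 11.7 and 10.5 TPM in line 2, at 14.2, 13.5 and 13.1 TPM in line 1, against 29.5, 28.8 and 27.5 TPM in WT. In both genes the 3 libraries of line 2 lay below the 3 of line 1, and all 6 lay well below WT. LOC_Os04g35030 had the opposite order, at 11.87, 12.01 and 9.95 TPM in line 2, at 6.94, 7.76 and 9.05 TPM in line 1, against 22.4, 23.7 and 26.1 TPM in WT. LOC_Os05g40890 was at 3.995, 4.30 and 4.01 TPM in line 2, at 3.003, 3.54 and 3.84 TPM in line 1, against 9.04, 8.75 and 10.02 TPM in WT.

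The other 4 of these 12 had WT means below 3 TPM. LOC_Os07g33620 was at 1.08, 0.776 and 0.817 TPM in line 2, at 0, 0.548 and 0.547 TPM in line 1, against 2.22, 2.78 and 2.33 TPM in WT. LOC_Os04g12460 was at 0.658, 0.751 and 0.442 TPM in line 2, at 0.808, 0.612 and 0.775 TPM in line 1, against 2.12, 2.69 and 2.71 TPM in WT. Both genes were below 1 TPM on average in both lines, a range where a single library can set the share of WT. LOC_Os03g58420 averaged 1.31 TPM in line 2 and 1.28 TPM in line 1, against 2.95 TPM in WT, and LOC_Os05g32770 averaged 1.05 TPM in line 2 and 0.782 TPM in line 1, against 2.46 TPM in WT.

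**Figure D2:**
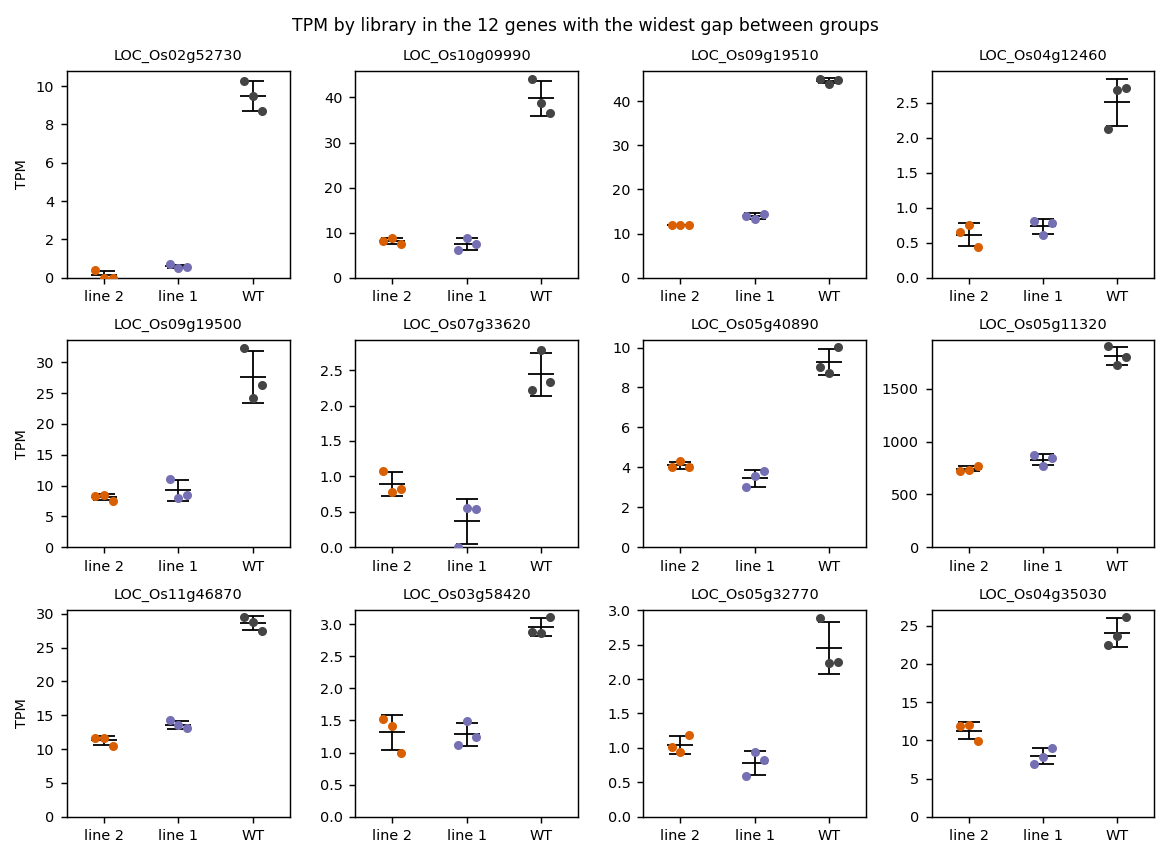
TPM in each library (points) with the mean and SD of the 3 libraries (bars) for the 12 members with the lowest ratio of highest mutant to lowest WT library. Each panel has its own linear axis from 0, with line 2, line 1 and WT from left to right; in LOC_Os10g09990 all 6 mutant values lie below 9 TPM and all WT values above 36 TPM.

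Several members were among the more abundant transcripts of the leaf. A WT mean of 100 TPM or more was found in 8 members (15.7%), against 7.41% of all tested genes. A WT mean below 5 TPM was found in 10 members (19.6%), against 27.3% of all tested genes. The median WT mean was 15.8 TPM in the module and 13.2 TPM over all tested genes. The rule used these values, so the distributions were not tested against each other.

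After LOC_Os05g11320 the most abundant member was LOC_Os03g12670, at 395, 411 and 427 TPM in line 2, at 427, 343 and 398 TPM in line 1, against 760, 849 and 883 TPM in WT. LOC_Os03g10090 followed, at 299, 287 and 290 TPM in line 2, at 240, 279 and 245 TPM in line 1, against 566, 541 and 528 TPM in WT. LOC_Os01g50460 was at 130, 127 and 140 TPM in line 2, at 155, 133 and 152 TPM in line 1, against 248, 264 and 270 TPM in WT. All 3 genes kept close to 50% of the WT level in each line, between 46.8% and 56.4%. LOC_Os04g59440 averaged 126 TPM in line 2 and 120 TPM in line 1, against 204 TPM in WT. LOC_Os01g58420 averaged 101 TPM in line 2 and 109 TPM in line 1, against 190 TPM in WT. LOC_Os09g09930 averaged 85.7 TPM in line 2 and 87.4 TPM in line 1, against 157 TPM in WT, and LOC_Os04g45810 averaged 75.8 TPM in line 2 and 78.4 TPM in line 1, against 131 TPM in WT. The rule used both the share and the WT level, so their relation across members is partly set by it. The median share over the 6 mutant libraries was 32.5% in members with a WT mean below 5 TPM, 46.5% from 5 to 20 TPM, 47.6% from 20 to 100 TPM and 54.3% from 100 TPM upwards.

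Summed over the module, the 51 genes made up 2415 to 2446 TPM in the libraries of line 2 and 2402 to 2566 TPM in those of line 1, against 5057 to 5276 TPM in WT. The 5 most abundant members held 70.8% of the WT sum. The sum therefore describes those few genes more than the module.

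At the low end, 7 members averaged less than 1 TPM in both lines and met the minimum of 1 TPM through their WT level. Members listed at 0 in at least 1 mutant library were LOC_Os02g52730, LOC_Os07g33620, LOC_Os03g19120 and LOC_Os03g20740, and no member was at 0 in WT. LOC_Os03g20740 was at 0.541, 0.450 and 0 TPM in line 2, at 0.940, 0.821 and 0 TPM in line 1, against 2.07, 1.66 and 3.49 TPM in WT. LOC_Os03g19120 was at 0.649, 0 and 0.851 TPM in line 2, at 0.792, 0.710 and 0.879 TPM in line 1, against 3.46, 3.05 and 1.57 TPM in WT. In both genes the WT libraries differed among themselves by more than the gap between the lowest WT and the highest mutant library. A further 7 genes met the ratio with a WT mean of at least 1 TPM but had a mean below 1 TPM over all libraries and were left out. LOC_Os03g20740 and LOC_Os03g19120 were picked for mention after their values were seen.

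The edge of the module was gradual. Just inside the ratio of 0.67 lay LOC_Os04g45810 (0.658), LOC_Os01g36720 (0.666) and LOC_Os11g05780 (0.669). Just outside lay LOC_Os09g38020 (0.672), LOC_Os03g40540 (0.674) and LOC_Os01g73024 (0.680). LOC_Os11g05780, the last member, was at 9.78, 8.99 and 8.17 TPM in line 2, at 10.8, 8.11 and 8.50 TPM in line 1, against 18.5, 16.5 and 16.2 TPM in WT. LOC_Os03g40540, outside, averaged a lower share of WT than that in line 2 (36.4% against 52.6%) and a higher one in line 1 (58.6% against 53.6%). A ratio of 0.5 left 7 genes and a ratio of 0.8 gave 218, so the size of the module is set by the cutoff.

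Individual libraries set that edge unequally. The lowest WT value came from WT replicate 1 in 9 members (17.6%), against 49.0% of all tested genes, and the highest WT value came from that library in 34 of the 51 members, against 30.1% of all tested genes. The highest mutant value came from replicate 1 of line 1 in 17 members (33.3%), against 10.3% of all tested genes. The 3 libraries of line 1 varied more among members, with a median coefficient of variation of 13.4%, against 8.53% over all tested genes. The matching values were 6.36% and 6.59% in line 2, and 8.26% and 8.88% in WT. When one library was left out and the rule applied to the other 8, between 54 and 71 genes met it, the most without WT replicate 2. At least 50 of the 51 members were among them each time. The part these libraries play in the members' values was not tested.

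The difference between the mutant lines was not set by the rule, and was tested with limma on log2(TPM + 1) over all 19345 genes. The cap on the highest mutant library did limit it, because genes reduced in a single line could not be members. Of the 51 members, 12 (23.5%) differed between line 2 and line 1 at a Benjamini-Hochberg adjusted p of 0.05, against 22% of all tested genes. These shares were close, but the rule limited the mutant values behind the first, so nothing is concluded from their closeness. Of the 12, 7 were higher in line 2, which is nearer to WT, and 5 were lower in line 2. Among all tested genes 15.2% were higher and 6.8% lower in line 2. These directions depended on the scaling: after median-ratio scaling 5 members were higher and 8 lower in line 2, and all tested genes split into 1921 higher and 1931 lower. Quantile normalization gave 6 higher and 7 lower members. The median change of line 2 minus line 1 on the log2 scale was 0.00 over the members and 0.07 over all tested genes as deposited, and -0.06 and 0.00 after median-ratio scaling. With 3 libraries a group, the count depended on single libraries: it was 7 without replicate 3 of line 1, without replicate 1 of line 2 or without replicate 2 of line 2.

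The members higher in line 2 were farther from WT in line 1. LOC_Os10g29650 showed the widest difference, at 9.48, 9.83 and 9.65 TPM in line 2, at 6.16, 4.73 and 4.57 TPM in line 1, against 15.7, 17.1 and 18.6 TPM in WT. Its change of line 2 minus line 1 was 0.80 ± 0.11 (SE, limma adjusted p = 8.0e-05). Line 2 thus kept 56.3% of the WT mean where line 1 kept 30.1%, and the 3 groups did not overlap. LOC_Os04g33590 was at 8.71, 8.93 and 8.4998 TPM in line 2, at 5.002, 6.02 and 5.497 TPM in line 1, against 13.6, 13.6 and 13.8 TPM in WT. Its change was 0.58 ± 0.09 (SE, limma adjusted p = 0.00029).

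LOC_Os07g42610 was at 8.69, 8.05 and 8.44 TPM in line 2, at 6.69, 3.54 and 5.80 TPM in line 1, against 18.3, 14.8 and 14.3 TPM in WT. The line 1 libraries of this gene were spread widely, and the change of 0.60 ± 0.16 (SE) had an adjusted p of 0.015 by limma, which became 0.0503 without replicate 1 of line 2. LOC_Os04g35030, whose values are given above, had a change of 0.46 ± 0.11 (SE, limma adjusted p = 0.0059). LOC_Os02g36280 was at 3.17, 3.14 and 2.23 TPM in line 2, at 2.08, 1.83 and 1.65 TPM in line 1, against 7.73, 5.86 and 6.54 TPM in WT. Its limma adjusted p was 0.042, and it exceeded 0.05 without WT replicate 3 (0.0558), without replicate 2 or 3 of line 1 (0.0822 and 0.134) and without replicate 1 or 2 of line 2 (0.150 and 0.148). LOC_Os03g10090 differed by 0.20 ± 0.06 (SE, limma adjusted p = 0.026). Its adjusted p was 0.0981 and 0.108 without replicate 1 or 3 of line 1, and 0.0990, 0.0610 and 0.0611 without replicate 1, 2 or 3 of line 2. The seventh, LOC_Os01g61010, is outside the rule for named genes. It averaged 54.8 TPM in line 2 and 44.0 TPM in line 1, against 91.9 TPM in WT, and had a limma adjusted p of 0.0038.

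Of the 5 members lower in line 2, LOC_Os07g27970 had the lowest adjusted p. It was at 15.9, 14.7 and 14.4 TPM in line 2, at 21.7, 21.7 and 19.5 TPM in line 1, against 43.3, 38.8 and 39.4 TPM in WT. Its change was -0.46 ± 0.08 (SE, limma adjusted p = 0.00058). Line 2 kept 37.0% of the WT mean where line 1 kept 51.8%. LOC_Os05g01730 was at 3.95, 3.78 and 3.48 TPM in line 2, at 5.89, 5.08 and 6.24 TPM in line 1, against 10.3, 9.51 and 9.73 TPM in WT. Its change was -0.50 ± 0.10 (SE, limma adjusted p = 0.0027).

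The other 3 were called less firmly. LOC_Os11g46870 differed by -0.25 ± 0.08 (SE, limma adjusted p = 0.032), and leaving out any one mutant library gave an adjusted p between 0.0522 and 0.130. LOC_Os09g19510 differed by -0.20 ± 0.07 (SE, limma adjusted p = 0.048). Its adjusted p was 0.0686 and 0.0700 without WT replicate 2 or 3, 0.102 and 0.159 without replicate 1 or 3 of line 1, and 0.114, 0.111 and 0.113 without replicate 1, 2 or 3 of line 2. LOC_Os02g52730 differed by -0.51 ± 0.15 (SE, limma adjusted p = 0.028). That change rests on values at or near 0: it was -2.02 with a pseudocount of 0.1, and the adjusted p was 0.0797 and 0.0658 without replicate 1 or 3 of line 1, and 0.107 and 0.102 without replicate 2 or 3 of line 2.

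**Figure D3:**
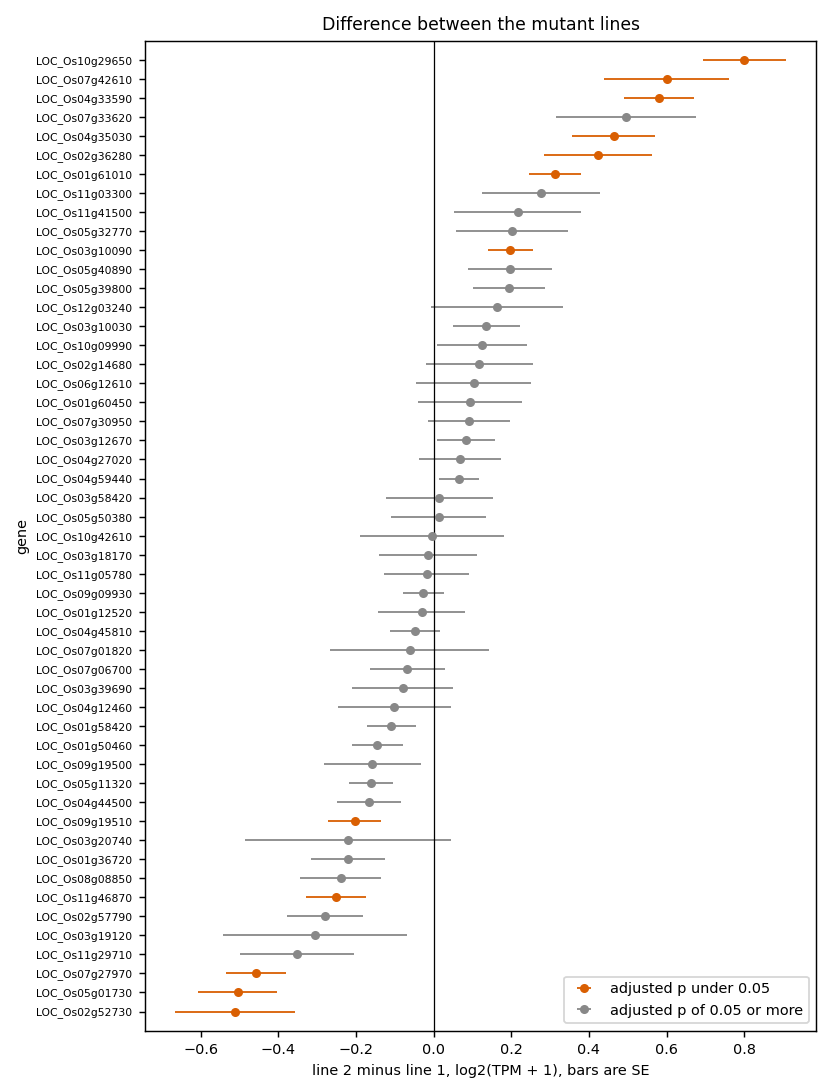
Change of line 2 minus line 1 on the log2(TPM + 1) scale for the 51 members, sorted, with SE from limma as bars. The 12 orange points passed an adjusted p of 0.05; they run from -0.51 in LOC_Os02g52730 to 0.80 in LOC_Os10g29650.

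The other 39 members did not pass, with changes from -0.35 to 0.50. Their 95% intervals, not adjusted for the number of genes, reached from -0.81 to 0.88, and in 30 of the 39 they lay within 0.5 on either side of 0. For these 30 genes a difference between the lines of more than 0.5 on the log2(TPM + 1) scale lay outside the interval. That scale understates changes of low genes, so for them a larger change in TPM is not excluded. LOC_Os04g12460, below 1 TPM on average in both lines, is among the 30. Its change was -0.10, and -0.23 with a pseudocount of 0.1. The most abundant member, LOC_Os05g11320, had a change of -0.16 ± 0.06 (SE, limma adjusted p = 0.058), close to the threshold, and the adjusted p was 0.0372 without WT replicate 1 and 0.0077 without replicate 2 of line 1. LOC_Os01g50460, at a limma adjusted p of 0.13, reached 0.018 without replicate 2 of line 1, and LOC_Os03g10030, at 0.30, reached 0.026 without replicate 1 of line 1. LOC_Os07g33620, at 0.066, reached 0.045 without replicate 2 of line 1. The lines overlapped in 31 members. The 3 libraries of line 2 all lay above those of line 1 in 10 members and all below in 10, against 27% and 12% of all tested genes.

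**Figure D4:**
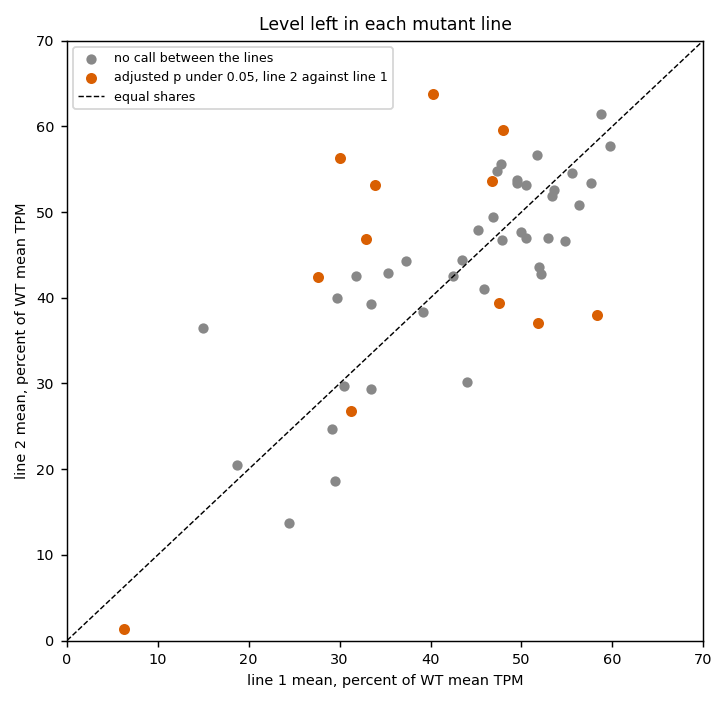
Mean level of each member in line 2 (vertical axis) and line 1 (horizontal axis) as a percent of the WT mean. Both axes share the same WT libraries. Orange points passed an adjusted p of 0.05 between the lines, and the dashed line marks equal shares; LOC_Os04g33590 is the highest point at 63.7% in line 2 and 40.3% in line 1.

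In limma's test against WT, given as background, 8.39% of all tested genes were lower in line 2 and 15.7% were lower in line 1 at an adjusted p of 0.05. All 51 members passed in both, as genes chosen for this difference largely must; with a pseudocount of 0.1, 50 passed in line 2 and 49 in line 1. The median change against WT was -1.006 in line 2 and -1.004 in line 1 over the members, and 0.00 and -0.06 over all tested genes.

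Position in the genome was not used by the rule. In the identifiers of this rice annotation the first number is the chromosome and the second follows the order of genes along it. Members lay on all 12 chromosomes. Chromosome 3 held 8 members, chromosome 4 held 7, chromosomes 1, 5 and 7 held 6 each, chromosome 11 held 5, chromosome 2 held 4, and chromosomes 9 and 10 held 3 each. Chromosomes 6, 8 and 12 held 1 each. Per 1000 tested genes this was 4.75 members on chromosome 11 and 4.15 on chromosome 4, against 0.642 on chromosome 6, 0.781 on chromosome 8 and 0.938 on chromosome 12. With so few members a chromosome, these shares are a description.

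Most members stood alone, as most genes of a set this small (0.264% of tested genes) would at random positions. Within 10 identifiers of each other were 2 pairs, and no expected number is set beside them here. One was LOC_Os09g19500 with LOC_Os09g19510, with no gene between them. The other was LOC_Os03g10030 with LOC_Os03g10090 on chromosome 3, which are 6 identifiers apart with 4 tested genes between them. LOC_Os03g10030 was at 34.5, 38.2 and 36.9 TPM in line 2, at 38.9, 31.3 and 29.9 TPM in line 1, against 67.0, 63.8 and 62.7 TPM in WT. The next closest members were 53 identifiers apart.

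The nearest tested genes on either side of the members, 100 genes that are not members themselves, were then examined. In 18 of them (18%) all 6 mutant libraries lay below all 3 WT libraries, against 9.98% of all tested genes. The opposite, all mutant libraries above WT, held for 6 (6%), against 9.11% of all tested genes. At an adjusted p of 0.05 by limma, 20 of the 100 (20%) were lower in line 2 and 25 (25%) were lower in line 1, against the 8.39% and 15.7% given above, and 8 and 11 were higher, against 13.5% and 9.94% of all tested genes. Over the 100 neighbours the median change was -0.08 in line 2 and -0.07 in line 1, on the log2 scale. Over all tested genes it was 0.00 in line 2 and -0.06 in line 1. In line 1 the median of the neighbours was thus close to that of genes at large, while the share called lower was not (25% against 15.7%).

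The 18 lower neighbours flanked 17 members. Their median change was -0.35 in line 2 and -0.47 in line 1. Over all tested genes with all mutant libraries below WT, the median was -0.27 in line 2 and -0.34 in line 1. The members had larger changes, but the neighbours had failed the ratio, so the rule largely sets that order. Of the 18, 10 carried the identifier directly next to a member, out of 42 such neighbours (23.8%), and 8 were among the 58 neighbours farther off (13.8%). LOC_Os11g29710, a member outside the rule for named genes and picked after its values were seen, had lower neighbours on both sides. This member was at 1.77, 1.4997 and 1.501 TPM in line 2, at 2.06, 2.80 and 2.09 TPM in line 1, against 6.55, 4.66 and 4.60 TPM in WT. Its neighbour LOC_Os11g29700 kept 90.3% of WT in line 2 and 85.2% in line 1, at 31.6, 30.8 and 30.9 TPM in line 2, at 28.6, 27.1 and 32.3 TPM in line 1, against 35.9, 34.3 and 33.2 TPM in WT. The neighbour on the other side, LOC_Os11g29720, was at 78.6, 82.5 and 83.0 TPM in line 2, at 115, 128 and 117 TPM in line 1, against 179.5, 174.5 and 173 TPM in WT. LOC_Os03g10100, next to LOC_Os03g10090, was at 27.7, 28.4 and 25.9 TPM in line 2, at 24.99, 29.6 and 27.1 TPM in line 1, against 49.2, 41.7 and 39.8 TPM in WT. The neighbours printed were picked after their values were seen, and 14 of the 18 were called lower in both lines by limma. LOC_Os11g29700 was not among these 14, with a limma adjusted p of 0.19 in line 2. The strandedness of the counting is not given in the sources used here, so reads of a member and of an overlapping neighbour cannot be told apart, and their part in these counts was not tested.

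Farther out the share was closer to that of all tested genes. At a distance of 2 tested genes from a member, 12 of 102 genes (11.8%) had all mutant libraries below WT, and the share lay between 5.88% and 11.8% from the second to the tenth gene, against 9.98% of all tested genes.

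**Figure D5:**
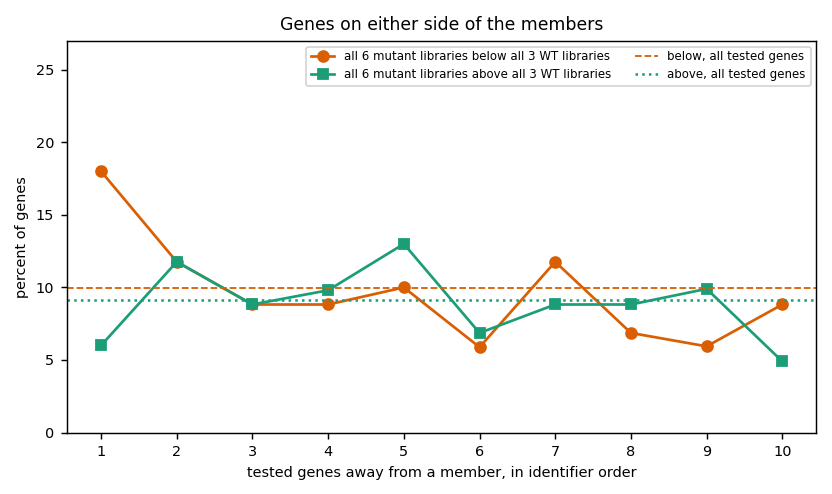
Percent of non-member genes with all 6 mutant libraries below (circles) or above (squares) all 3 WT libraries, by distance from a member counted in tested genes (horizontal axis). The dashed and dotted lines give the same shares over all tested genes, 9.98% and 9.11%; the share below WT is 18% at the first gene and 11.8% at the second.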

How the data were processed

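The authors deposited one table of TPM values with a column for each of the 9 libraries; each column sums to 1000000. Per the submitters' processing notes, fastp 0.20.1, HISAT2 2.1.10 and DESeq2 1.26.0 were used, with no role given. The program that made the TPM values, the build and the annotation are not given in the sources used here. TPM keeps no depth, so the depth is unknown and the precision rests on the spread between 3 libraries.

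Groups follow the sample titles. Membership was computed from the TPM values as deposited. The test was limma (version 3.58.1, R 4.3.3), applied to log2(TPM + 1) in one model with a mean for each group and a variance trend, over the 19345 genes that averaged 1 TPM or more. Tests were two-sided, with Benjamini-Hochberg adjustment and a threshold of 0.05. Changes on this scale understate those of low genes. The fit was tested on simulated data. The members and lists were chosen with earlier results of these data known.

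Named genes were the 12 members with the lowest ratio, the 8 with the highest WT mean, up to 5 called in each direction between the lines, members within 10 identifiers of each other, and 3 genes on each side of the cutoff. Other genes are marked in the text. The lists of genes by function and of cell type markers could not be applied, because identifiers were not paired with names. Alternatives were a pseudocount of 0.1, other minimum levels (none, or a mean of 5 TPM), other ratios, quantile normalization, median-ratio scaling, a constant prior variance, a fit of the 6 mutant libraries alone, a replicate block, and each library left out in turn.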

Additional observations from a re-analysis of the deposited data

Results flagged for a closer look

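The direct test of line 2 against line 1 called 12 of the 51 members (23.5%; limma, adjusted p of 0.05). That share was near the 22% of all tested genes, and several of these calls ended under the alternatives given below. Among the genes named above, the change of line 2 minus line 1 on the log2(TPM + 1) scale was 0.80 in LOC_Os10g29650, 0.60 in LOC_Os07g42610, 0.58 in LOC_Os04g33590, 0.46 in LOC_Os04g35030, 0.42 in LOC_Os02g36280 and 0.20 in LOC_Os03g10090. It was -0.51 in LOC_Os02g52730, -0.50 in LOC_Os05g01730, -0.46 in LOC_Os07g27970, -0.25 in LOC_Os11g46870 and -0.20 in LOC_Os09g19510. Groups of 3 libraries are too small for a test of outlying libraries.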

How the results depend on the processing

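Under median-ratio scaling 43 genes met the rule, 42 of them members, and under quantile normalization 62 did, 47 of them members. A minimum mean of 5 TPM left 34 genes and no minimum gave 71. A ratio of 0.5 gave 7, a ratio of 0.8 gave 218 and the rule turned round gave 494. Leaving out one library gave 54 to 71. Line 2 against line 1 gave 9 to 14 members called under the alternatives that kept all libraries or all mutant libraries, and 7 to 14 with one library left out; 4 to 7 were then higher and 2 to 7 lower in line 2. Members lower in line 2 numbered 8 (with 5 higher) under median-ratio scaling and 3 in the fit of the 6 mutant libraries alone, against 5 as reported. Median-ratio scaling gave 1921 higher and 1931 lower genes among all tested, against 2941 and 1315 as reported. The cause was not tested. Of the named members, 5, namely LOC_Os10g29650, LOC_Os04g33590, LOC_Os07g27970, LOC_Os05g01730 and LOC_Os04g35030, passed in each of 17 alternative fits, with a highest limma adjusted p of 0.034. Calls between the lines that ended (limma adjusted p) were those of LOC_Os09g19510 without a minimum TPM (0.0532), in the fit of the mutant libraries alone (0.0801) and with the replicate block (0.0604), of LOC_Os02g36280 without a minimum (0.0530), under quantile normalization (0.119), under median-ratio scaling (0.0930) and in the mutant libraries alone (0.0559), of LOC_Os03g10090 under median-ratio scaling (0.180) and a constant prior variance (0.0955), of LOC_Os07g42610 under quantile normalization (0.0549), and of LOC_Os02g52730 in the mutant libraries alone (0.0704). LOC_Os05g11320 passed under median-ratio scaling (0.0289) and with the block (0.0408), LOC_Os01g50460 under median-ratio scaling (0.0316), LOC_Os03g12670 under quantile normalization (0.0345) and LOC_Os01g36720 with the block (0.0370). No called change of a named member turned its sign in the fits run. With the replicate number as a block, 14 members differed between the lines, 11 of them among the 12 as reported, and 4381 of all tested genes did. Same-numbered libraries had correlated deviations above 0.1 in 3 of 9 pairs (0.01 to 0.21), and a library correlated best with its own number in 15 of 18 combinations of library and other group. This is a hint from the data, and the numbers were not taken to pair libraries. Neighbours lower than WT in all mutant libraries numbered 16 to 26 under alternatives chosen after seeing the data, the most without WT replicate 1, where the share of all tested genes was 17.3%. Unknown depth limits the members below 1 TPM most.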
